A study of Homo sapiens with 28 samples.

Results

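IBET151, a small molecule that occupies the acetyl-lysine pocket of BET bromodomain proteins, was set against its solvent DMSO in nuclei of MDA-MB-453, a line grown from a human breast cancer of luminal, HER2-bearing type. The 2 IBET151 Nuc libraries and the 3 DMSO Nuc libraries were chosen by their sample labels and make up 5 of the 28 libraries of the series, and all genes of both deposited tables were described. All cells, those in DMSO included, had 3 h of drug or solvent and 0.1 mM 4-thiouridine for the closing 60 min, and were mixed with 10% Drosophila S2 cells before digitonin parted a cytoplasmic supernatant from the nuclear pellet. The dose of IBET151 is not in the labels, and the line is a single one. Nothing says whether the libraries of a group came from separate cultures, so p-values measure only the spread between libraries. In the main limma fits of the nuclear fraction that spread was taken from all 14 nuclear libraries of the series. The series asks how cells keep and export new transcripts while transcription is briefly blocked. It also holds JQ1, a chemically unrelated BET inhibitor, and VHL-linked forms of both compounds.

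BET proteins bind acetylated histones at promoters and enhancers and help to bring in the kinase P-TEFb, which releases paused RNA polymerase II. Inhibitors that fill the bromodomain pocket displace these proteins from chromatin, and transcripts of short half-life and genes under strong enhancers are known to be sensitive to them, while certain histone genes, HEXIM1 and SERPINI1 are known to go up. 4-thiouridine built into new RNA and then alkylated is read as C in place of T, so a read carrying such a T-to-C change, called a T>C read here, stands for RNA made during the labelling. Reads came from the 3′ ends of polyadenylated RNA. Values are the deposited ones, scaled by the authors to ERCC spike-in RNA and called scaled values here. In the 5 libraries 1 read was worth 0.927 to 2.01 scaled units.

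The ERCC RNA was added per mass of RNA, so the scaled sums cannot show a change in total nuclear RNA per cell, and scaled values of genes are levels per mass of RNA. The sums are given to describe the libraries. In units of 1000000 scaled units, the IBET151 libraries summed to 41.3 and 54.7 over all reads, against 22.3, 48.5 and 67.9 in the DMSO libraries. The DMSO libraries lay on both sides of the IBET151 libraries. The means were 48.0 ± 9.51 with IBET151 (SD, n = 2) and 46.3 ± 22.9 in DMSO (SD, n = 3), a log2 difference of 0.18. The T>C sums were 2.30 and 1.99 with IBET151 and 1.79, 3.08 and 1.53 in DMSO, with means of 2.15 ± 0.216 with IBET151 and 2.13 ± 0.829 in DMSO and a log2 difference of 0.07. T>C reads made up 5.57% and 3.64% of the IBET151 sums and 8.02%, 6.34% and 2.25% of the DMSO sums, so these groups overlapped as well. Two-sided exact permutation tests over the 10 possible splits gave p = 0.9 for both sums and 0.8 for the share (0.9 for all 3 after Benjamini-Hochberg adjustment), where the smallest p this design allows is 0.1. The numbers in the titles fall into 4 runs, of which only run B holds both groups, and within it IBET151 replicate 1 minus DMSO replicate 2 came to -0.23 and -0.42 on the log2 scale for the sums and to -0.768 percentage points for the share. Leaving out 1 library also turned the sign of each of the 3 differences, which ran from -0.27 to 0.53 for all reads, from -0.13 to 0.37 for T>C reads and from -2.57 to 0.311 percentage points for the share. In such bulk samples fewer cells and less RNA per cell cannot be told apart.

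**Figure D1:**
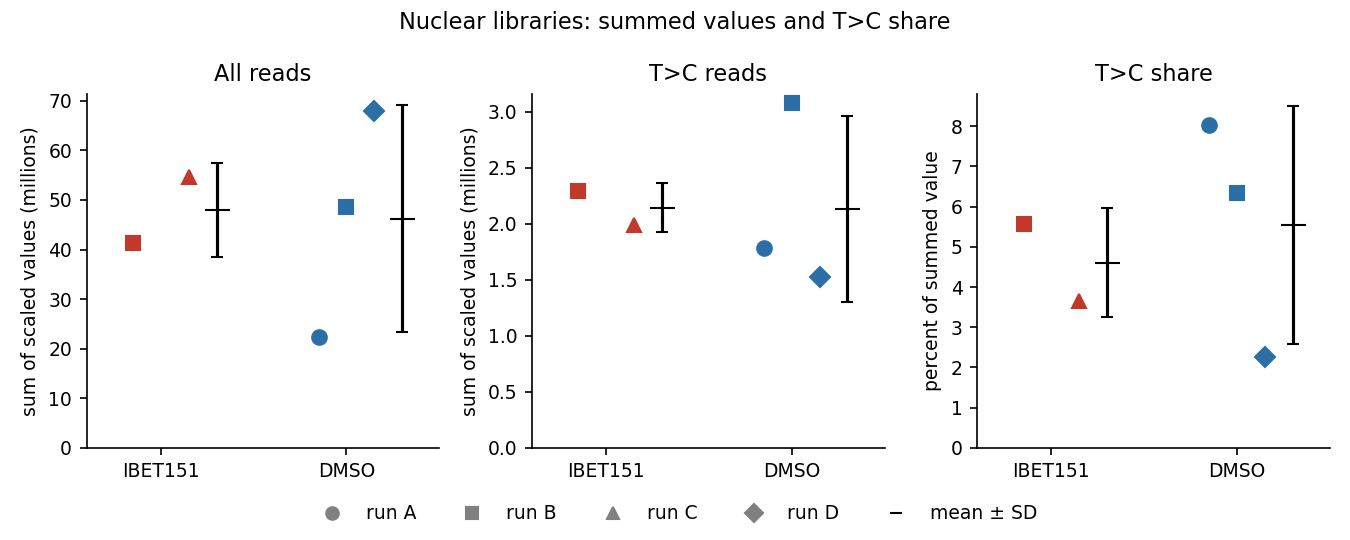
Summed scaled values of all reads and of T>C reads (in 1000000 scaled units) and the T>C share (%) of each nuclear library, IBET151 left of DMSO, with the mean ± SD of each group and a marker shape for each run of library numbers. The DMSO libraries span 22.3 to 67.9 over all reads and enclose both IBET151 libraries.

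The 5 libraries held 20489624 to 35456271 reads each, of which 798676 to 1928012 were T>C reads. The 8 luminal epithelial markers summed to 247156 to 368619 scaled units with IBET151 and 162236 to 567111 in DMSO. The 14 of 17 stromal, immune, endothelial and basal markers with a row summed to 4638 to 5421 with IBET151 and 3151 to 6856 in DMSO, most of it COL1A1, and the defining markers LUM, CD3E and PECAM1 were not analysed here. Nuclear-retained RNAs summed to 81778 to 95774 in the IBET151 and 44460 to 88511 in the DMSO nuclear libraries, against 9649 to 10200 in the IBET151 and 8231 to 11816 in the DMSO cytoplasmic ones. Every nuclear library was above every cytoplasmic one.

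Among all nuclear reads, few genes passed the test, led by the germ cell gene TEX14, the neuronal tubulin gene TUBB3 and the histone gene H2BC18. Of 14417 genes tested, 13 rose and 1 fell (0.0971% of the genes tested, 0.0902% for rises and 0.00694% for falls), at an adjusted p under 0.05 by limma with Benjamini-Hochberg adjustment over all genes. The median log2 change over all genes was 0.05, and 509 genes had an unadjusted p under 0.05. The scaling weighs on this count: with median-ratio scaling over the human genes in place of the ERCC scaling, 252 genes rose (1.75%) and 320 fell (2.22%, together 3.97% of those tested), and 12 of the 14 genes were among them. The balance of rises and falls was not stable: 276 rose and 2938 fell with the run of library numbers as a term, 697 and 1963 with weights per library, and 3 and 6 without IBET151 replicate 2. edgeR, given the recovered reads and offsets from the deposited scaling, found 17 higher and 1 lower. The libraries of the 2 groups did not overlap in 8.91% of genes (higher with IBET151) and 7.81% (lower).

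TEX14 (ENSG00000121101), which encodes a protein of the bridges between male germ cells, had 2940 and 1457 scaled units in the IBET151 libraries, against 70.5, 103 and 107 in the DMSO libraries. Every IBET151 library was far above every DMSO library, and TEX14 rose by 4.48 ± 0.78 on the log2 scale (SE, adjusted p = 0.00124, limma). TUBB3 (ENSG00000258947), the neuronal class of beta-tubulin, had 469 and 464 with IBET151 and 6.49, 31.8 and 49.8 in DMSO. The 2 IBET151 values were nearly equal while the DMSO values spread widely below them, and TUBB3 rose by 4.33 ± 0.76 (adjusted p = 0.00124, limma). H2BC18 (ENSG00000203814), a histone H2B gene, had 4868 and 4147 with IBET151 and 288, 465 and 249 in DMSO, again without overlap, and rose by 3.80 ± 0.83 (adjusted p = 0.0319, limma). Within run B the 3 genes differed by 4.83, 3.84 and 3.38. TEX14 passed in 17 of 18 other settings, but not without IBET151 replicate 1 (adjusted p = 0.237), and TUBB3 in 17 of 18, but not when only the groups compared were fitted (0.0773). H2BC18 passed in 12 of 18 and lost its call without any 1 of the 5 libraries (adjusted p from 0.0517 to 0.607), at log2 changes of 3.61 to 4.06.

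H3C14, a histone H3 gene with near-identical copies among which reads may be shared, had 16.1 and 39.8 scaled units with IBET151 and no read in any DMSO library. Set against a floor of 3 reads over the DMSO group, a mean of 1.54 units, it was at least 18.2-fold higher with IBET151 (adjusted p = 0.0402, limma). SERPINI1, which encodes neuroserpin, had 316 and 241 with IBET151 and 16.7, 33.6 and 34.5 in DMSO, and rose by 3.31 ± 0.73 (adjusted p = 0.0319, limma). CSRP2, a LIM-domain protein of muscle, had 109 and 95.6 with IBET151, against 4.64, 7.08 and 13.4 in DMSO. FGF22, a fibroblast growth factor, had 292 and 297 with IBET151, against 32.5, 37.1 and 24.9 in DMSO. In each of these genes the lowest IBET151 library exceeded the highest DMSO library several times over. IQCN, a calmodulin-binding protein of sperm, had 471 and 291 with IBET151 and 32.5, 42.5 and 44.0 in DMSO. CDKL2, a kinase related to the cyclin-dependent kinases, had 169 and 121 with IBET151 and 21.3, 17.7 and 1.92 in DMSO. C14orf178, SLC22A14 (a solute carrier) and HLA-DMB (a chaperone of MHC class II peptide loading) also rose, and the remaining riser is an identifier without a symbol. Those 3 stood at 23.9 to 59.7 in the IBET151 libraries and at most 5.75 in DMSO. Each of the 9 genes of this paragraph lost its call when either IBET151 library was left out, and also without DMSO replicate 1 for C14orf178, CSRP2, FGF22, IQCN, SERPINI1 and SLC22A14, replicate 2 for the same genes but C14orf178, and replicate 3 for CDKL2, FGF22, HLA-DMB and IQCN. Fitted log2 changes ran from 3.20 for FGF22 and IQCN to 3.89 for C14orf178 among these 8 symbols, H3C14 left out.

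**Figure D2:**
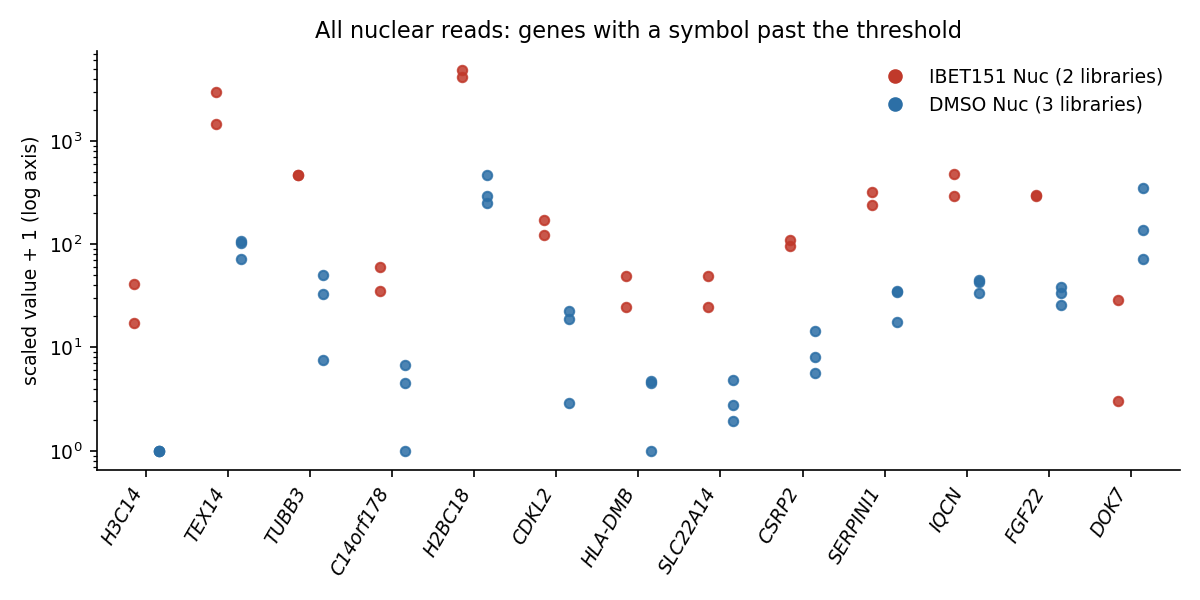
Scaled value + 1 (log axis) of every nuclear library for the genes with a symbol that passed the threshold in all reads, IBET151 (2 points, left) beside DMSO (3 points, right) at each gene. No gene shown has overlapping groups, and DOK7 is the only one below DMSO.

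The only gene that fell in all reads was DOK7, an adaptor that activates the receptor kinase MuSK at the neuromuscular junction. It had 2.01 and 27.9 scaled units with IBET151, against 71.4, 136 and 345 in DMSO. The IBET151 values lay apart from each other, yet both were under the lowest DMSO library, and DOK7 fell by 4.02 ± 0.85 on the log2 scale (SE, adjusted p = 0.0268, limma). The call was lost without IBET151 replicate 1 (log2 change -2.39) or DMSO replicate 3 (-3.42, adjusted p = 0.116, limma). DOK7 also lost it without a filter, when only the groups compared were fitted (adjusted p = 0.216, limma), and with DESeq2, which called 0 genes lower. The next genes by p that were lower without overlap did not pass: ZNF624, a zinc finger gene, had 2.01 and 21.9 with IBET151 and 66.8, 115 and 78.5 in DMSO (adjusted p = 0.0952), and NUAK1, a kinase related to AMPK, had 38.3 and 25.9 with IBET151 and 139, 356 and 207 in DMSO (0.124). PARP8, PRDM10, ZNF112, HSH2D, PALMD, LRFN2 and ZNF583 followed, with log2 differences of -3.18 to -2.48 and adjusted p of 0.142 to 0.218.

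The promoters of the leading changed genes are given here to show the sequence context of genes that moved in opposite directions; they span 250 bases before to 50 bases after the annotated start, read 5′ to 3′ on the gene's strand, from RefSeq on GRCh38.p14. Capitals mark 4 motifs searched on both strands: TATAAA (the TATA box), the CCAAT box, the E-box CACGTG that MYC-type factors bind, and the GC box GGGCGG (printed as CCGCCC where it lies on the other strand). TEX14 is named only. H3C14 lies at chr1:149841159-149841458 on the minus strand, TUBB3 at chr16:89921675-89921974 and DOK7 at chr4:3463056-3463355 on the plus strand, and SLC1A7, the leading gene of the T>C falls below, at chr1:53142589-53142888 on the minus strand. TUBB3 and DOK7 have 2 promoters each in the table, and the first was taken.
H3C14: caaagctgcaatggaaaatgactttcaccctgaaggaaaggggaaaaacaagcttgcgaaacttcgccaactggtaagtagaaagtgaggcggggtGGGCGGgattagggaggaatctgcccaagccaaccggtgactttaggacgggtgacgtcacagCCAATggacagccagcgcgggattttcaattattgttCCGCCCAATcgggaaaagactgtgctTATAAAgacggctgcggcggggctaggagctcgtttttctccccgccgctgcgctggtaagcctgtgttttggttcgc
TUBB3: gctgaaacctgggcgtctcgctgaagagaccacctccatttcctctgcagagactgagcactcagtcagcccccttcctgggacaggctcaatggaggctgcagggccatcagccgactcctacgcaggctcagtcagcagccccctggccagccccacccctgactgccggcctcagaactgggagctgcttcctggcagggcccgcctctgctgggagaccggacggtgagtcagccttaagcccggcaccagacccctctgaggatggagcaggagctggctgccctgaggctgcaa
DOK7: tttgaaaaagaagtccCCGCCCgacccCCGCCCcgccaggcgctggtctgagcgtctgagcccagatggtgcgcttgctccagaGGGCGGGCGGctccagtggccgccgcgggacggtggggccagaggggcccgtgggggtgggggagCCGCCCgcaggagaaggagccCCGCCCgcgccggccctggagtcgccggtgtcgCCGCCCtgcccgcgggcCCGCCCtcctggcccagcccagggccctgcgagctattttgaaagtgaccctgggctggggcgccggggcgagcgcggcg
SLC1A7: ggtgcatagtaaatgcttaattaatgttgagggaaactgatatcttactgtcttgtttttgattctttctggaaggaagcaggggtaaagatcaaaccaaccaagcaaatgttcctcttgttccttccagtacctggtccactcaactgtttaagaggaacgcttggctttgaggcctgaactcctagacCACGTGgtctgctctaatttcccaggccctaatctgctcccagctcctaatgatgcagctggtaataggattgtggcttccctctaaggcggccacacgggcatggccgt
The H3C14 promoter held TATAAA 28 bases before the start, CCAAT at 91 and 50 bases and GGGCGG at 154 bases and, on the other strand, at 54 bases, where it overlaps the nearer CCAAT. The DOK7 promoter held 8 GGGCGG matches, 2 of them overlapping, and the SLC1A7 promoter 1 CACGTG at 60 bases before the start. None of the 4 motifs lay in the TUBB3 window. Over all 35116 promoters of the table, 11.5% hold TATAAA, 34.6% CCAAT, 7.26% CACGTG and 45.0% GGGCGG, so a match is common and is given as a description only.

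With the deposited scaling more genes passed in T>C reads than in all reads, and most of them fell. Of 12059 genes tested in T>C reads, 38 rose and 119 fell (1.3% of the genes tested, 0.315% for rises and 0.987% for falls, limma), around a median log2 change of -0.07. With median-ratio scaling 20 rose (0.166%) and 60 fell (0.498%, together 0.663%), 78 of these 80 being among the 157. edgeR called 21 higher and 19 lower, all 40 of them among the 157, so the excess of falls was not kept there. DESeq2 called 25 higher and 60 lower, so it was kept with that method. Rises and falls were near equal with weights per library (1072 and 1114) and without DMSO replicate 2 (43 and 50). Which table held more calls turned with the setting: all reads against T>C reads gave 572 and 80 calls with median-ratio scaling, 3214 and 665 with the run term and 2660 and 2186 with weights per library. All 157 genes had groups that did not overlap, as had 23.8% of the genes tested (8.36% higher and 15.4% lower with IBET151). That all 157 differed the same way within run B follows from this lack of overlap and is no further check. Leaving out 1 library left 95 (without DMSO replicate 1), 93 (without DMSO replicate 2), 140 (without DMSO replicate 3), 53 (without IBET151 replicate 1) or 34 genes (without IBET151 replicate 2).

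The T>C risers were led by TEX14, with 415 and 313 scaled units in the IBET151 libraries against 8.35, 12.4 and 15.3 in DMSO, a rise of 4.83 ± 0.79 on the log2 scale (SE, adjusted p = 2.52e-06, limma). DHRS2, a short-chain dehydrogenase, had 58.4 and 109 with IBET151 and 0.927, 1.77 and 5.75 in DMSO, and rose by 4.62 ± 0.90 (adjusted p = 0.000254, limma), though not without IBET151 replicate 2 (0.106). CCN3, a secreted matricellular protein, had 22.2 and 31.9 with IBET151 and no T>C read in DMSO, at least 17.6-fold higher with IBET151 (adjusted p = 0.000746, limma). In these genes no DMSO library exceeded 15.3 units, and both IBET151 libraries stood above that. MAP2, a microtubule-associated protein of dendrites, had 157 and 79.6 with IBET151 and 7.42, 17.7 and 0 in DMSO. TUBB3 had 60.4 and 81.6 with IBET151 and 1.85, 5.31 and 3.83 in DMSO. IQCN, KLHL3 (an adaptor of a cullin ubiquitin ligase), DGAT1 (an enzyme of triglyceride synthesis), CACNA2D2 (a calcium channel subunit) and VSIG1 (an immunoglobulin-domain protein) rose as well, with fitted log2 changes of 3.78 to 4.38 from at most 10.6 units in any DMSO library. CACNA2D2 and VSIG1 had no T>C read in DMSO and were each at least 8.48-fold higher with IBET151. edgeR did not call DGAT1, CACNA2D2 or VSIG1 (adjusted p = 0.119, 0.175 and 0.229). Calls were lost without IBET151 replicate 1 in MAP2, KLHL3, IQCN, TUBB3, DGAT1 and CACNA2D2, without replicate 2 in those genes but MAP2 and in CCN3, without DMSO replicate 1 in IQCN, TUBB3, DGAT1 and CACNA2D2, without DMSO replicate 2 in CACNA2D2, and without DMSO replicate 3 in MAP2 and DGAT1.

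Histone genes with polyadenylated transcripts were mostly higher in new RNA. Of 31 listed, 17 were tested in T>C reads, where 6 rose and 0 fell, while 0.315% of all genes tested rose. Of the 17, 16 were higher, and the median log2 change was 2.29, against -0.07 over all genes. H2BC18 had 554 and 723 scaled units with IBET151 and 35.2, 63.7 and 23.0 in DMSO, a rise of 4.05 ± 0.76 (SE, adjusted p = 9.3e-05, limma) that was kept in all 18 other settings. H1-2, a linker histone, had 328 and 854 with IBET151 and 12.1, 54.8 and 105 in DMSO, and rose by 3.64. The IBET151 libraries of H1-2 differed from each other, but the lower stood above every DMSO library. H2BC11 had 761 and 824 with IBET151 and 81.6, 136 and 32.6 in DMSO, H2BC4 300.1 and 279 against 32.5, 56.6 and 11.5, and H2BC21 558 and 1254 against 67.7, 165 and 91.9, with rises of 3.45, 3.33 and 3.04 (adjusted p = 0.00182, 0.00431 and 0.0105, limma). H4C8 was the other riser. In all reads 18 of the listed genes were tested, and all 18 were higher (median 1.56, against 0.05 over all genes). Of the listed genes H2BC18 alone passed there, where 0.0902% of all genes rose. The histone gene H3C14, which also passed in all reads, is not on the list. H1-2, H2BC4 and H2BC21 are also the 3 T>C risers among the 12 tested BET inhibitor response genes, against the same 0.315% of all genes. The median of that list was 2.18 in T>C reads and 1.34 in all reads. The calls of H1-2, H2BC11, H2BC4 and H2BC21 were lost without IBET151 replicate 2, those of H2BC11, H2BC4 and H2BC21 also without replicate 1, those of H1-2 and H2BC21 without DMSO replicate 1 and those of H2BC11 and H2BC4 without DMSO replicate 3, and histone reads may be shared between near-identical copies.

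Among short-lived transcripts the immediate-early genes FOS and EGR1 rose. FOS, a subunit of the AP-1 transcription factor, had 385 and 5411 scaled units of T>C reads with IBET151 and 39.9, 110 and 130 in DMSO, and rose by 4.10 ± 0.76 (SE, adjusted p = 6.89e-05, limma). EGR1, a zinc finger factor of the early growth response, had 1752 and 7059 with IBET151 and 229, 541 and 609 in DMSO, and rose by 3.05 (adjusted p = 0.0225, limma). In both genes IBET151 replicate 2 was several times above replicate 1, and without it the differences were 2.20 for FOS (adjusted p = 0.758) and 2.05 for EGR1 (0.961). EGR1 also lost its call without DMSO replicate 1 or 2. FOSB had 22.2 and 99.5 with IBET151 and 2.78, 0 and 11.5 in DMSO, and rose by 3.74 (adjusted p = 0.0253, limma; 0.0887 with edgeR), and lost its call without either IBET151 library or DMSO replicate 1 or 2. GADD45B, a stress-induced gene, had 715 and 1483 with IBET151 and 88.1, 265 and 228 in DMSO without passing (2.55, adjusted p = 0.0534). Of 36 short-lived transcripts tested, 2 rose and 0 fell in T>C reads, where 0.315% of all genes rose, with a median of 0.76, against -0.07 over all genes.

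**Figure D3:**
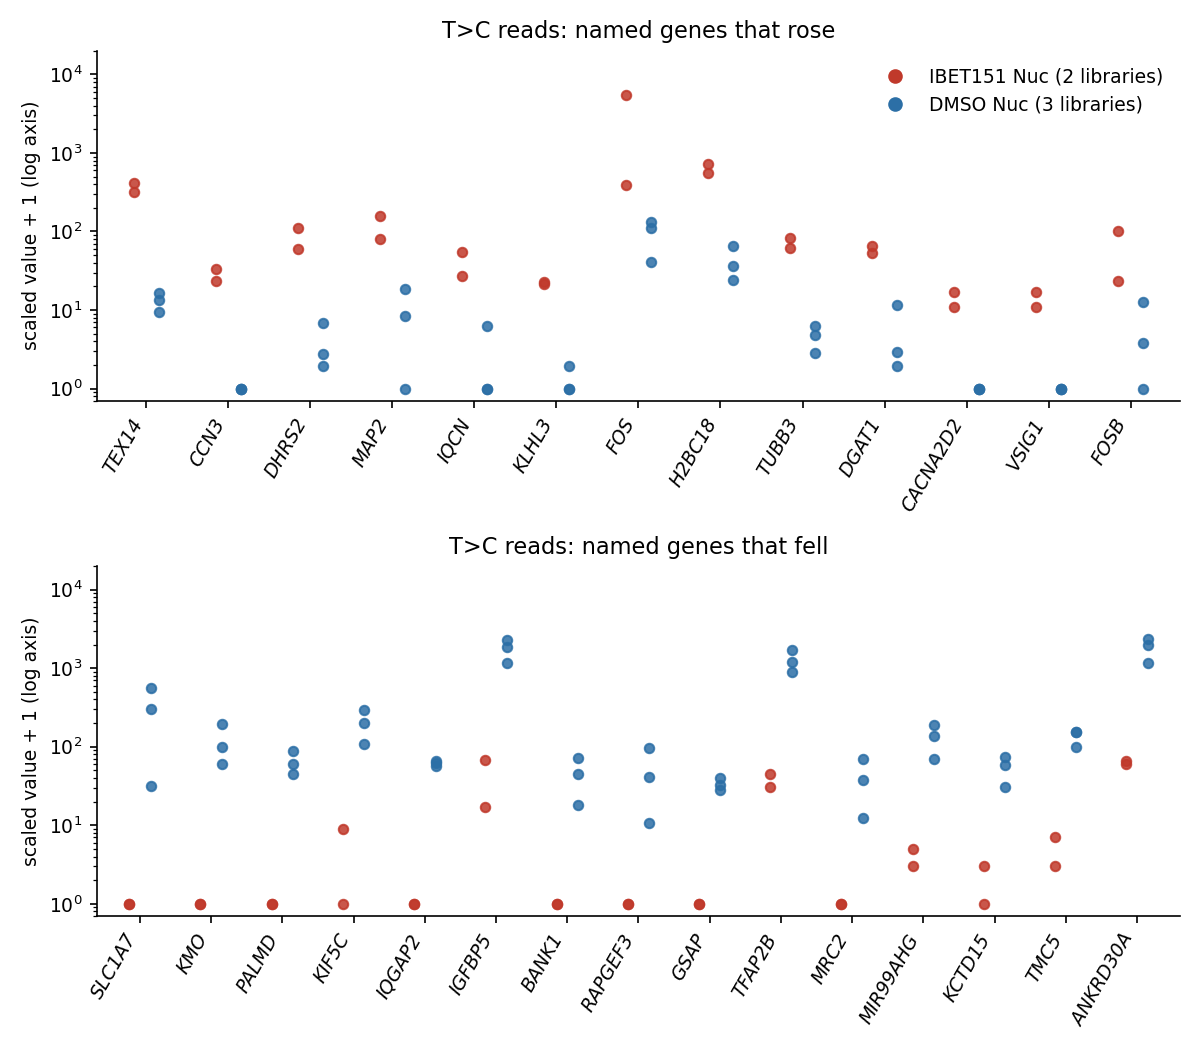
Scaled T>C value + 1 (log axis) of every nuclear library for the named genes with a symbol that rose (top) and fell (bottom), IBET151 (2 points, left) beside DMSO (3 points, right) at each gene. Points at 1 are libraries with no T>C read, which hold both IBET151 libraries for 8 of the genes that fell, SLC1A7 among them.

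Several genes that fell had no T>C read left with IBET151. SLC1A7 (ENSG00000162383), a glutamate transporter known from retina, had no T>C read in either IBET151 library, against 304, 561 and 30.6 scaled units in DMSO. With a floor of 3 reads over the IBET151 group, a mean of 3.00 units, it was at least 99.4-fold lower with IBET151 (adjusted p = 1.33e-09, limma). KMO, the kynurenine hydroxylase of tryptophan breakdown, had none with IBET151 and 97.4, 195 and 59.4 in DMSO, and was at least 39.0-fold lower. PALMD (palmdelphin) had none with IBET151 and 43.6, 86.7 and 59.4 in DMSO. IQGAP2 (a scaffold of small GTPases) and RAPGEF3 (an exchange factor opened by cyclic AMP) also had none with IBET151, and were at least 20.2-fold and 16.1-fold lower. BANK1 (a B cell scaffold protein), MRC2 (a collagen receptor) and GSAP (an activator of gamma-secretase) completed the named genes without a T>C read, at least 14.7-fold, 12.9-fold and 10.8-fold lower. Among all 119 genes, 42 had no T>C read in either IBET151 library, and 72 had at most 3 reads over both, so that at this depth their fold change is bounded rather than measured. edgeR did not call GSAP (adjusted p = 0.107) or MRC2 (0.0674).

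Where enough reads remained, as in the first 3 genes here, the falls could be measured. IGFBP5 (ENSG00000115461), a secreted binder of insulin-like growth factors, had 16.1 and 67.7 scaled units of T>C reads with IBET151 and 1173, 1850 and 2294 in DMSO. TFAP2B, an AP-2 transcription factor of luminal cells, had 44.3 and 29.9 with IBET151 and 1202, 1728 and 887 in DMSO. ANKRD30A, a breast differentiation antigen, had 64.4 and 59.7 with IBET151 and 1969, 2354 and 1164 in DMSO. The highest IBET151 library was more than an order of magnitude under the lowest DMSO library in each of the 3 genes. IGFBP5 fell by 5.64 ± 0.83, TFAP2B by 5.04 ± 0.85 and ANKRD30A by 4.80 ± 0.79 on the log2 scale (SE, adjusted p = 5.14e-08, 5.38e-06 and 2.95e-06, limma), and within run B they differed by -6.76, -5.25 and -5.17. These 3 calls and those of SLC1A7, KMO, PALMD, IQGAP2 and BANK1 were kept in all 18 other settings. KIF5C, a kinesin heavy chain, had 8.06 and 0 with IBET151 and 200.3, 292 and 107 in DMSO. MIR99AHG, a microRNA host transcript, had 2.01 and 3.98 with IBET151 and 187, 134 and 68.9 in DMSO. TMC5, a channel-like membrane protein, had 6.04 and 1.99 with IBET151 and 151, 152 and 99.6 in DMSO. KIF5C, MIR99AHG and TMC5 had only a few T>C reads with IBET151, so the size of their falls is poorly measured. KCTD15 fell by 4.87 (edgeR adjusted p = 0.0887). Without IBET151 replicate 2 the calls of KIF5C, TMC5 and KCTD15 were lost, and without replicate 1 that of MIR99AHG.

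Only 18 of the 119 genes that fell had a mean of at least 20 scaled units in both groups. Of these, the 2 with the highest DMSO means were looked up after their values were seen. TRPS1, a GATA-type zinc finger factor of breast epithelium, had 580 and 673 with IBET151 and 4416, 4946 and 3677 in DMSO, and fell by 2.79 ± 0.76 (SE, adjusted p = 0.0271, limma; 0.141 with edgeR). THBS1, the matrix protein thrombospondin, had 298 and 390.2 with IBET151 and 3138, 5102 and 4588 in DMSO, and fell by 3.61 ± 0.76 (adjusted p = 0.000884, limma). Among 28 tested genes of the luminal and HER2 list, TFAP2B and AGR2 fell and 0 rose, where 0.987% of all genes fell, with a median of -0.34, against -0.07 over all genes. AGR2, a protein disulfide isomerase of secretory epithelium, had 58.4 and 102 with IBET151 and 559, 1003 and 511 in DMSO, and fell by 3.08 (adjusted p = 0.0219, limma; 0.0738 with edgeR), but not without either IBET151 library or DMSO replicate 1 or 2. Among 21 interferon response genes MX1, an antiviral GTPase, fell and 0 rose, with a median of -0.78, against the same -0.07. MX1 had 2.01 and 0 with IBET151 and 15.8, 46.0 and 53.6 in DMSO (adjusted p = 0.00434, limma; 0.255 with edgeR), and its call was lost without IBET151 replicate 2.

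The genes that fell in T>C reads were then looked up in all reads. Since they were chosen for their T>C fall, a smaller change in all reads follows in part from that choice. In all reads SLC1A7 differed by -0.07, IQGAP2 by -0.10, IGFBP5 by -0.30, ANKRD30A by -0.77, KMO by -0.81, TFAP2B by -1.19 and PALMD by -2.68 on the log2 scale, and none of them passed with the deposited scaling, though TFAP2B (adjusted p = 0.0057) and PALMD (0.000741) did with median-ratio scaling. Of the 119 genes that fell in T>C reads, 107 were also lower in all reads, with a median of -0.82. Of the 119, 0 passed with the deposited scaling, 33 fell with median-ratio scaling and 79 fell with the run term. Of the 38 that rose, 38 were higher in all reads and 6 passed, with a median of 2.14. Both tables hold the T>C reads, so these values are not independent of each other.

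The T>C share of each gene sets new RNA against the gene's own pool. In SLC1A7, T>C reads were 0 of 8948 and 0 of 3815 reads in the IBET151 libraries, against 328 of 12058, 317 of 13255 and 16 of 3664 in DMSO. The exact 95% binomial intervals of the IBET151 libraries allow shares of up to 0.0412% and 0.09665%. IGFBP5 had shares of 0.0252% (exact 95% binomial interval 0.0109% to 0.0496%) and 0.0387% (0.0268% to 0.0540%) with IBET151 and of 1.82% (1.73% to 1.93%), 1.66% (1.57% to 1.77%) and 0.743% (0.702% to 0.786%) in DMSO. IQGAP2 had 0 of 412 and 0 of 754 reads with IBET151, where the exact intervals allow up to 0.891% and 0.488%, and shares of 7.26%, 5.04% and 3.52% in DMSO. In the 3 genes no interval of an IBET151 library reached the interval of a DMSO library. They are the genes that passed the share test below, so this follows in part from that choice. These intervals and limits cover counting error only. Of 12046 genes tested on log2(T>C value + 1) minus log2(all-read value + 1), these 3 fell and 0 rose (0.0249%; 5 or 0.0415% with median-ratio scaling), with changes of -7.39 for SLC1A7, -5.34 for IGFBP5 and -5.84 for IQGAP2 (adjusted p = 0.00156, 0.0235 and 0.0440, limma), around a median of -0.09. Leaving out 1 library gave 1 call (without DMSO replicate 1, DMSO replicate 2 or IBET151 replicate 2), 6 (without DMSO replicate 3) or 0 (without IBET151 replicate 1). KMO (adjusted p = 0.0694) and ANKRD30A (0.139) did not pass, with shares of 0.451% and 0.325% for ANKRD30A in IBET151 libraries and 6.90%, 8.16% and 4.55% in DMSO. Among the risers, TEX14 had shares of 14.1% and 21.4% with IBET151 and 11.8%, 12.1% and 14.3% in DMSO, and FOS 59.5% and 61.5% with IBET151 and 47.8%, 39.0% and 51.5% in DMSO, and neither passed (adjusted p = 1.00 for both).

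**Figure D4:**
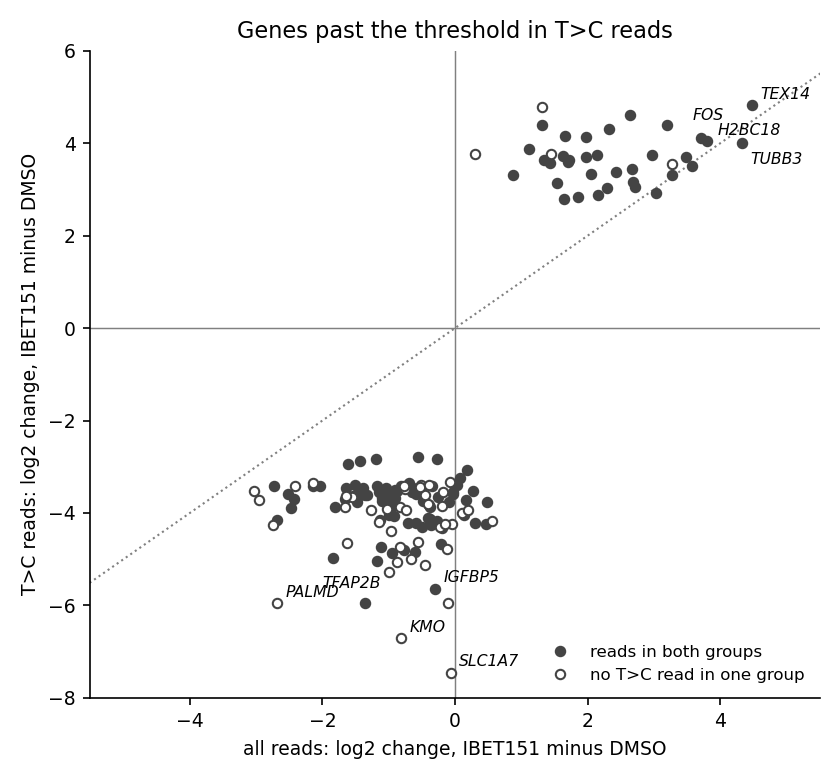
Log2 change, IBET151 minus DMSO, in T>C reads (vertical) against all reads (horizontal) for the 157 genes that passed in T>C reads, with open points for genes without a T>C read in 1 group and a dotted line of equal change. The 38 risers lie right of 0 in all reads, while the 119 fallers sit far below the dotted line near or left of 0, with SLC1A7 at -0.07 in all reads.

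Gene lists of the processes the study is about held 0 calls in either table, which is no result about them, since only 0.0971% of all genes passed over all reads, and 1.3% for T>C reads. Of the mRNA export factors, 35 were tested in all reads with 0 calls and a median of 0.06. NXF1, the main mRNA export receptor, had 8591 and 9128 scaled units with IBET151 and 1886, 4125 and 4600 in DMSO, higher in both libraries by 1.43 without passing (adjusted p = 1.00, limma), but it passed with median-ratio scaling (0.00201) and with the run term (0.00124). Nuclear speckle and SR proteins gave 0 calls among 33 (median 0.15). DYRK3, a kinase that dissolves speckles, had 358 and 478 with IBET151 and 45.4, 47.8 and 63.2 in DMSO, a difference of 2.98 ± 0.72 that did not pass (adjusted p = 0.0645, limma; 0.0392 with edgeR and 0.000895 with median-ratio scaling). NEAT1, the scaffold RNA of paraspeckles, had 26809 and 25430 with IBET151 and 8234, 19805 and 12205 in DMSO, above every DMSO library but not past the threshold (1.05, adjusted p = 1.00). MALAT1, a speckle RNA, had 53228 and 39722 with IBET151 and 45465, 52629 and 18517 in DMSO, and the groups overlapped. P-TEFb and elongation factors gave 0 calls among 30 (median -0.02), nuclear pore genes 0 among 27 (0.02), snoRNA host transcripts 0 among 8 (0.19) and nuclear-retained RNAs 0 among 5 (0.38).

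Of the genes that are often read as markers of BET inhibition, SERPINI1 passed in all reads, while MYC, HEXIM1 and BRD2 did not with the deposited scaling. MYC had 82.6 and 394 scaled units in all reads with IBET151 and 225, 483 and 959 in DMSO, so the groups overlapped (log2 difference -1.38, adjusted p = 1.00, limma; 0.178 with median-ratio scaling and 0.00641 with the run term). HEXIM1, the inhibitor of P-TEFb in the 7SK complex, had 6984 and 11186 with IBET151 and 2467, 4849 and 8474 in DMSO, also with overlap (0.92, adjusted p = 1.00; 0.0291 with median-ratio scaling). BRD2, itself a BET gene, had 26783 and 36608 with IBET151 and 9107, 20673 and 21117 in DMSO, without overlap but not past the threshold (0.98, adjusted p = 1.00; 0.0069 with median-ratio scaling). The luminal factor GATA3 (-0.91, adjusted p = 1.00; 0.0271 with median-ratio scaling) and the receptor ERBB2 (-0.07, 1.00; 0.871) had overlapping groups. The zinc finger gene ZNF689 had 262 and 301 with IBET151 and 714, 1590 and 1499 in DMSO, lower in both libraries by 2.09 without passing (adjusted p = 0.531; 0.000523 with median-ratio scaling).

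The other lists had 0 calls in all reads, where only 0.0971% of all genes passed, so this is no result about them. Ribosomal protein genes were higher in 68 of 77 (median 0.37) and sterol synthesis genes in 20 of 21 (median 0.44). Both medians lay above that of all genes, 0.05, but 0 genes of either list had an unadjusted p under 0.05 (limma). Heat shock and unfolded protein genes (18 tested, median 0.51), p53 targets (24, 0.35), hypoxia genes (23, 0.24), luminal and HER2 genes (31, 0.18), cell division genes (29, 0.16), interferon response genes (22, 0.09) and ribosome biogenesis genes (34, 0.05) gave none. CDKN1A, the p53-induced inhibitor of cyclin-dependent kinases, had 1611 and 2056 with IBET151 and 143, 599.7 and 726 in DMSO, higher in both libraries by 2.20 without passing (adjusted p = 0.599; 0.00261 with median-ratio scaling). In T>C reads, where 1.3% of all genes passed, these lists had 0 calls apart from those named above. With median-ratio scaling, where 1.75% of all genes rose and 2.22% fell in all reads, more list members passed. The all-read counts were 8 rose and 0 fell for BET inhibitor response genes, 9 and 0 for histone genes and 6 and 4 for short-lived transcripts. They were 5 and 2 for p53 targets and 0 and 3 for luminal and HER2 genes, with at most 3 calls in each other list. The lists were not tested as sets.

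**Figure D5:**
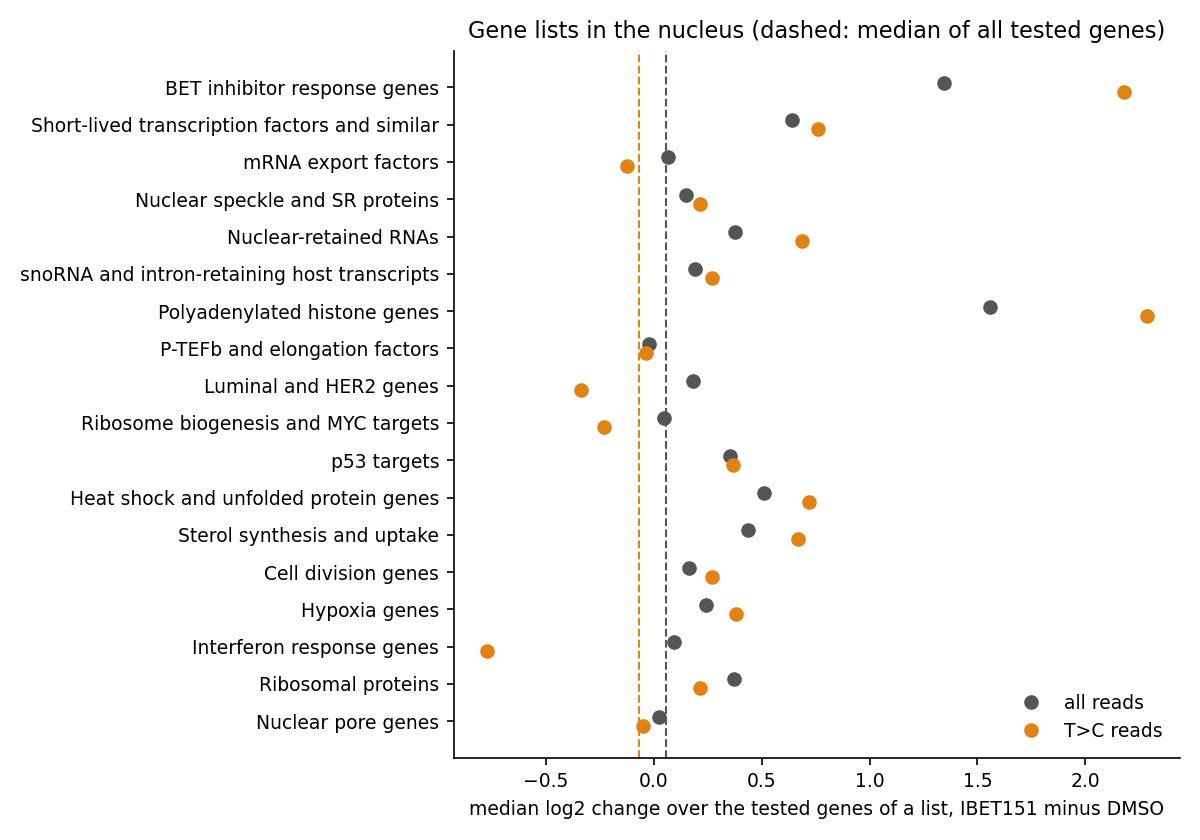
Median log2 change, IBET151 minus DMSO, over the tested genes of each list in all reads (grey) and T>C reads (orange), with dashed lines at the medians of all tested genes (0.05 and -0.07). Polyadenylated histone genes (1.56 and 2.29) and BET inhibitor response genes (1.34 and 2.18) lie farthest right.

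The cytoplasmic fraction of the same treatment gives the same genes a second reading, in libraries of their own, though the labels do not say whether both fractions came from the same cells. TEX14 had 159 and 85.6 scaled units in the IBET151 cytoplasmic libraries and 13.7, 24.5 and 8.80 in the DMSO ones, and rose there by 2.93 ± 0.54 (SE, adjusted p = 0.00837, limma). TUBB3 rose by 4.16 (adjusted p = 0.000443), H2BC18 by 2.82 (0.0045) and IQCN by 2.45 (0.0332), and DOK7 fell by 2.39 (0.0231). SERPINI1 (1.40, adjusted p = 0.443), CSRP2 (1.29, 0.399) and CDKL2 (1.47, 0.291) did not pass in the cytoplasm. In T>C reads TFAP2B fell by 4.63 (adjusted p = 0.000152), ANKRD30A by 3.97 (0.000589), SLC1A7 by 3.56 (0.000589) and IGFBP5 by 3.40 (0.00339) in the cytoplasm. There TFAP2B, ANKRD30A and IGFBP5 had means of only 4.20, 3.72 and 2.30 scaled units with IBET151, against 133, 75.6 and 31.5 in DMSO. The size of these cytoplasmic falls is therefore poorly measured. The nuclear minus the cytoplasmic change was then tested in a fit of all 28 libraries. Of 14458 genes in all reads, 0 passed (0.0%), with 195 at an unadjusted p under 0.05, and edgeR and DESeq2 called 0 (141 and 132 at an unadjusted p under 0.05). In T>C reads 1 of 12067 genes had a higher (0.00829%) and 11 a lower nuclear change (0.0912%, together 0.0994%), and none of these passed with edgeR or DESeq2. In all reads the nuclear change of TEX14 exceeded the cytoplasmic one by 1.55 on the log2 scale (95% interval -0.17 to 3.26) and that of TUBB3 by 0.17 (-1.70 to 2.04). The intervals are several log2 units wide, so that sizeable differences between the fractions are within them.

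JQ1 was compared through libraries that share the DMSO controls, and its dose is not in the labels either. In JQ1 nuclear libraries TEX14 had 1487, 3231 and 1442 scaled units over all reads, against the 2940 and 1457 with IBET151, and TUBB3 had 121, 295 and 428, against 469 and 464. Against DMSO, TEX14 changed by 4.48 with IBET151 and 4.36 with JQ1, TUBB3 by 4.33 and 3.43, H2BC18 by 3.80 and 3.00, and DOK7 by -4.02 and -3.04, where H2BC18 and DOK7 did not pass with JQ1 (adjusted p = 0.0775 and 0.0802, limma). In T>C reads SLC1A7 had no read with IBET151 and 1.53, 1.17 and 0 scaled units with JQ1, IGFBP5 16.1 and 67.7 with IBET151 and 19.1, 59.5 and 97.9 with JQ1, and TFAP2B 44.3 and 29.9 with IBET151 and 35.1, 68.8 and 30.5 with JQ1. The libraries of the 2 compounds lay in the same low range in these genes. FOS had 385 and 5411 with IBET151 and 99.2, 504 and 534 with JQ1 in T>C reads, so that IBET151 replicate 2 stood apart. Tested directly as IBET151 minus JQ1, 0 of 14417 genes passed in all reads (107 at an unadjusted p under 0.05, 105 and 92 by edgeR and DESeq2, which also called 0), around a median of 0.49, and 0 of 12059 in T>C reads (191 at an unadjusted p under 0.05, 88 and 46 by edgeR and DESeq2, which also called 0), around a median of 0.60. The differences were 0.12 for TEX14 (95% interval -1.43 to 1.67), 0.91 for TUBB3 (-0.61 to 2.42) and 0.79 for H2BC18 (-0.86 to 2.45) in all reads, and 2.27 for FOS (0.78 to 3.75, adjusted p = 0.865) and -0.53 for IGFBP5 (-2.14 to 1.09) in T>C reads, so the data leave room for differences of over 1 log2 unit between the compounds.

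The genes that fell in T>C reads spanned a median of 48.5 kb on GRCh38 (GENCODE), those that rose 21.8 kb and all tested genes 36.3 kb, with a span known for 118 of 119, 34 of 38 and 11905 of 12059. Over 4 equal classes of span, from shortest to longest, 20, 29, 28 and 41 genes fell and 13, 8, 2 and 11 rose. The fallers had a median DMSO value of 39.7 scaled units and the risers one of 6.14, against 90.8 over all tested genes, so both sets lay toward low T>C levels in DMSO, the risers most. Whether the span bears on the direction was not tested.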

How the data were processed

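The series holds 28 3′ end libraries of polyadenylated RNA, read as 100 bp single ends, 14 per fraction. Per the submitters' processing notes, bcl2fastq, Trimmomatic 0.39, HISAT2, HTSeq and DESeq2 were used, with the builds GRCh37, hg19 and dm3. The rule that set T>C reads apart is not given in the sources used here, and no library without 4-thiouridine sets their background. The values are signal: the authors scaled read numbers to ERCC RNA and deposited 1 table for all reads (16482 genes) and another for T>C reads (13029 genes). Dividing by each library's smallest step gave whole reads (100% of values within 0.001), so depth is known. The tables hold no mitochondrially encoded genes, and 479 and 245 identifiers had no symbol. Reads of overlapping or near-identical genes may be shared.

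A gene was kept where 2 or more libraries reached 10 in the all-read table, or 5 in the T>C table. The limma trend method (limma 3.58.1, R 4.3.3) was applied to log2(value + 1) of the 14 nuclear libraries, 1 mean per group, with Benjamini-Hochberg adjustment over all genes. Fold changes on this scale understate those of low genes. The nuclear minus cytoplasmic contrast used all 28 libraries, and its T>C form and the T>C form of IBET151 minus JQ1 were added after the data were seen. edgeR 4.0.16 (quasi-likelihood) and DESeq2 1.42.0 were run on the recovered reads. Because the deposited values are not counts, limma on the log2 scale stayed the main test. Scripts were tested on simulated data. Other alternatives were pseudocounts of 0.5 and 5, no filter and a filter 5 times higher, median-ratio scaling, fits of only the groups compared, replicate block, run of library numbers as a term, weights per library, and leaving out each library.

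Named genes were, per table, up to 15 per direction past the threshold by size of change, filled up to 10 by smallest p without overlap (means of at least 50 in all reads or 20 in T>C reads), up to 8 per direction that passed with median-ratio scaling, the 4 members of each of 21 lists with the smallest p, and 11 genes everywhere, of which those with a bearing on a group are printed. Members, lists and tests were chosen with earlier results of these data known. Figures used matplotlib 3.10.9 (Python 3.11.15).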

Additional observations from a re-analysis of the deposited data

Results flagged for a closer look

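For 12 genes the change in T>C reads with IBET151 differed between the nucleus and the cytoplasm, by a test of the difference in 1 limma fit of all 28 libraries that was added after the data were seen (12067 genes tested, 0.0994% called). In 11 of them the nuclear change was the lower one. The nuclear minus cytoplasmic difference in log2 change was -5.09 for BANK1, -5.05 for GSAP, -4.97 for MIR99AHG, -4.71 for MRC2, -4.59 for KMO, -4.56 for XDH, -4.23 for ERAP2, -4.19 for TBKBP1, -4.18 for TIMP1, -4.1 for MS4A7 and -3.88 for PPP4R1L. KLHL3 alone had a higher nuclear change, by 4.59. KMO had no T>C read in either nuclear IBET151 library and 97.4, 195 and 59.4 scaled units in the nuclear DMSO libraries, while in the cytoplasm it had none with IBET151 and 1.61, 6.75 and 3.10 in DMSO. GSAP had none in the nuclear IBET151 libraries, 39.0, 31.8 and 26.8 in the nuclear DMSO libraries, and none in any cytoplasmic library of either group. KLHL3 had 20.1 and 21.9 in the nuclear IBET151 libraries, 0.927, 0 and 0 in the nuclear DMSO libraries, and in the cytoplasm none with IBET151 and 0, 0 and 1.55 in DMSO. Outside KMO, no cytoplasmic library of the 12 genes exceeded 1.82, so in them the cytoplasm had next to no T>C reads from which a change could be read. None of the 12 passed with median-ratio scaling, edgeR, DESeq2 or a pseudocount of 0.5, and the part of the low cytoplasmic T>C depth in these calls was not tested.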

How the results depend on the processing

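Counts of called genes, and in all reads their balance of rises and falls, moved with the scaling, the run term and the weights. In T>C reads the balance moved too: 51 rose and 614 fell with the run term, and 1072 and 1114 with weights. There edgeR gave 21 and 19, and leaving out DMSO replicate 2 gave 43 and 50. No named gene that passed changed sign in an alternative, but the differences of the 3 library sums and shares, which had no call, did. The run term moved the median change of all genes to -0.41 over all reads and to -0.76 for T>C reads, and weights per library moved it to -0.18 in all reads. In all reads 14 genes passed, and 12 with a pseudocount of 0.5, 30 with one of 5, 2 without a filter, 28 with a filter 5 times higher, 572 with median-ratio scaling, 2 when only the groups compared were fitted, 3214 with the run of library numbers as a term, 2660 with weights per library and 2390 with median-ratio scaling and run together (added after seeing the data). In T>C reads 157 passed, and 97 with a pseudocount of 0.5, 413 with one of 5, 80 with median-ratio scaling, 250 with only the groups compared, 665 with the run term, 2186 with weights, 40 with edgeR, 85 with DESeq2 and 380 with median-ratio scaling and run. For the T>C share 3 passed, and 1, 7, 5, 30, 8 and 684 with the pseudocounts of 0.5 and 5, median-ratio scaling, only the groups compared, the run term and weights. For nuclear minus cytoplasmic changes in all reads (0 calls), the run term gave 3 and weights 36. In T>C reads (12 calls), pseudocounts of 0.5 and 5 gave 0 and 100, no filter 21, median-ratio scaling, only the groups compared, edgeR and DESeq2 0, the run term 24 and weights 150. For IBET151 minus JQ1 (0 calls in each table), weights gave 277 calls over all reads, against 2239 for T>C reads. Within run B the T>C sum differed by -0.42. Leaving out 1 library gave 3 to 14 calls in all reads, 34 to 140 in T>C reads, 0 to 6 for the share, 0 to 33 for nuclear minus cytoplasmic T>C changes and 0 to 1 for IBET151 minus JQ1 in all reads. The causes were not tested. Of the named genes' single values, 3218 stayed on their side of the threshold, 413 came to pass and 161 lost their call. T>C reads were at most 1928012 per nuclear library, so that genes with few of them in DMSO could not show a fall.

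Same-numbered libraries deviated from their group means with r = 0.43 for replicate 1 and -0.19 for replicate 2 in all reads, and 0.18 and -0.05 in T>C reads. With only 2 IBET151 libraries, their deviations are mirror images, so these values cannot show whether the numbers pair the libraries. The labels do not say what a replicate number stands for, and the main fits were left without a block. With a replicate block 818 genes passed in all reads (1465 with median-ratio scaling), 265 in T>C reads (244 with median-ratio scaling), 66 for the share, 5 and 22 for nuclear minus cytoplasmic changes in all and T>C reads, and 3456 and 1 for IBET151 minus JQ1 in all and T>C reads.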

Other observations

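Interferon-induced genes set single nuclear libraries apart within a treatment. IFI6, a mitochondrial interferon-induced protein, had 59910 and 254393 scaled units over all reads in the IBET151 libraries and 11787, 55259 and 441617 in the DMSO libraries. IFI27 had 220 and 3412 with IBET151 and 54.7, 198 and 6720 in DMSO. In both genes DMSO replicate 3 and IBET151 replicate 2 were the highest of their treatment, and IFI6 also reached 392261 in JQ1 replicate 3, against 13385 and 50175 in the other JQ1 libraries. Neither gene differed between IBET151 and DMSO by limma (log2 differences 0.90 and 1.04, adjusted p = 1.00 for both), and the groups overlapped.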
